A study of Mus musculus with 3 samples.

Results

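Class switch junctions were examined in which the joined ends shared at least 4 bases, a microhomology (MH) of 4 bp or more. The members were chosen by length alone: in a sequence read, the alignment of one end overlapped that of the other by 4 bases or more, and the junction lay in the immunoglobulin heavy chain locus (IgH). Of 2995 junctions in 3 libraries, 2625 lay in IgH, and 297 of these were members. They numbered 138 in DNA-PKcs-/- replicate 5, 123 in PQR/PQR replicate 1 and 36 in PQR/PQR replicate 2. The sequence of 255 members was listed and used. The list for the 40 Sμ members of PQR/PQR replicate 1 was not used here, so these are described by count, length class and orientation alone. IgH junctions with MH of 1 to 3 bp, 1407 in the 3 libraries, were the comparison class.

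The cells were CD43- splenic B cells of 129Sv mice that carried preassembled IgH and IgK loci in both genotypes. Before DNA was taken, 4 days of stimulation with IL-4 (20 ng/mL) plus an antibody to CD40 (1 ng/mL) had induced switching to IgG1 and IgE. One library came from cells without DNA-PKcs (DNA-PKcs-/-, replicate 5), and the others from cells homozygous for the PQR allele of DNA-PKcs, which alters a phosphorylation cluster of the kinase. High-throughput genome-wide translocation sequencing (HTGTS) extends a primer in the 5′ part of Sμ, the bait, across a junction into the sequence joined to it, the prey. No label ties the PQR/PQR libraries to different animals, and the spread between them may be technical.

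Class switching joins breaks in the switch region Sμ to breaks in a downstream switch region such as Sγ1 or Sε. Activation-induced deaminase (AID) starts these breaks and favours AGCT motifs, in which switch regions are rich. DNA-PKcs is a kinase that acts in classical end joining, the pathway that joins ends directly or with few shared bases. Alternative end joining pairs short runs of matching bases exposed by resection of the ends, and junctions with longer MH are commonly used as its mark.

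Most bait ends lay in one short stretch, shown here because its bases set which microhomologies were possible there. It held the bait end of 134 of 138, 80 of 81 and 35 of 36 listed members of the 3 libraries, in the order given above, and the farthest end of a member was at bait base 186. It is the consensus of the deposited reads at chr12:114669148-114669257 (mm9, minus strand) and starts with the 21 bases of the nested primer. Capitals mark its AGCT motifs.
bait: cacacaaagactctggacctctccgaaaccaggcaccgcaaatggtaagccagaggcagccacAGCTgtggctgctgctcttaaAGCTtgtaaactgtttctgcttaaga
The first AGCT covers bait bases 64 to 67 and lies in the middle of a palindrome of 20 bases, bait bases 56 to 75. The second covers bases 85 to 88. The site of AflII, the enzyme used to remove unrearranged sequence, covers bases 104 to 109. The other 4, 1 and 1 listed members had their bait end past it, beyond the printed bases.

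The longest listed member of each library and region is printed as an example, and most members were shorter. Each read is given with 20 bait bases, the overlap in capitals and 20 prey bases. The capitals were not always an exact match to both ends, as given below.
DNA-PKcs-/- replicate 5, Sμ, inverted: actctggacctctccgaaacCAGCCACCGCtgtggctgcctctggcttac
DNA-PKcs-/- replicate 5, Sγ1: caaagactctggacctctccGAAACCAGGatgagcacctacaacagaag
DNA-PKcs-/- replicate 5, Sε: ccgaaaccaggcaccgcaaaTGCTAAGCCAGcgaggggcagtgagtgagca
DNA-PKcs-/- replicate 5, other IgH: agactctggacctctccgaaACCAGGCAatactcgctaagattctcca
PQR/PQR replicate 1, Sγ1: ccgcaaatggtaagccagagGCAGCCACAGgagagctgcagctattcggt
PQR/PQR replicate 1, Sε: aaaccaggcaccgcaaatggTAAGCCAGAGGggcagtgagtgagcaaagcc
PQR/PQR replicate 1, other IgH: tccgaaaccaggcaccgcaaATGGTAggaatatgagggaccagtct
PQR/PQR replicate 2, Sμ: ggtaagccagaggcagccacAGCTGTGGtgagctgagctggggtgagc
PQR/PQR replicate 2, Sγ1: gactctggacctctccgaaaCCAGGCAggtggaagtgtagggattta
PQR/PQR replicate 2, Sε: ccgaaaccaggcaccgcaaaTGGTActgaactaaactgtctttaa
The preys began at 114669184, 114567495, 114512181 and 114660037 in DNA-PKcs-/- replicate 5, at 114568049, 114512759 and 114546782 in PQR/PQR replicate 1, and at 114667760, 114571325 and 114513200 in PQR/PQR replicate 2 (chr12, mm9). Apart from the one named as inverted, all were on the bait's strand, the orientation of a deletion. The inverted one had its prey at chr12:114669184-114669234, within the stretch of the bait itself, read on the other strand.

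The overlap was not always an exact match. The deposited lists give 10 germline prey bases on each side of the break. The shared bases were compared with this germline prey, over 10 bases at most, and with the consensus of the reads on the bait side. A bait base without a consensus counted as a match. The 9 bp overlap in Sγ1 of DNA-PKcs-/- replicate 5 matched both, while the 10 bp overlap in Sγ1 of PQR/PQR replicate 1 held 1 mismatch to the prey, as the germline prey around both breaks shows (capitals, the part within the overlap).
germline prey, DNA-PKcs-/- replicate 5, Sγ1: tgggaactagGAAACCAGGa
germline prey, PQR/PQR replicate 1, Sγ1: gtcaggctgaGCAGCTACAG
Of these longest members, only Sγ1 of DNA-PKcs-/- replicate 5, other IgH of PQR/PQR replicate 1 and Sε of PQR/PQR replicate 2 matched both. The others held at least 1 mismatch, and the 7 bp overlap in Sγ1 of PQR/PQR replicate 2 held 2 to the prey. Overlaps of 4 to 7 bp were exact in 126 of 128 listed members of DNA-PKcs-/- replicate 5, 69 of 75 of PQR/PQR replicate 1 and 34 of 35 of PQR/PQR replicate 2. Overlaps of 8 bp or more were exact in 3 of 10, 0 of 6 and 0 of 1. In the authors' DNA-PKcs-/- pool they were exact in 15 of 46. Most of the few overlaps of 8 bp or more therefore held at least 1 mismatch to an end, and length there is the length of the overlap.

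Some junctions were listed in more than one library. With bait end, prey end, strand and MH all equal, 4 members of DNA-PKcs-/- replicate 5 recurred in PQR/PQR replicate 2, all inverted junctions in Sμ. They were 4 of 21 inverted Sμ members of the former and 4 of 8 of the latter. In 3 of the 4 the far end of the aligned prey was also equal, and the aligned preys were 28 to 74 bp long. Of inverted Sμ junctions with MH of 1 to 3 bp, 3 of 58 and 3 of 24 recurred in the same way.
shared inverted member, prey from 114669299: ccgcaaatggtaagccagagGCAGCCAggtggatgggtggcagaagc
shared inverted member, prey from 114669276: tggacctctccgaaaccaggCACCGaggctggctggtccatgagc
shared inverted member, prey from 114669185: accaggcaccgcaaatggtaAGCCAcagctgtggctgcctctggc
shared inverted member, prey from 114667886: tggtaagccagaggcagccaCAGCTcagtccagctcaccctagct
One Sε member, with prey from 114513447, was common to DNA-PKcs-/- replicate 5 and PQR/PQR replicate 1, and 0 of the 81 listed members of PQR/PQR replicate 1, which do not cover Sμ, were listed in PQR/PQR replicate 2. The rest of the authors' DNA-PKcs-/- pool also held 10 of 50 Sμ members and 15 of 157 Sμ junctions with MH of 1 to 3 bp of DNA-PKcs-/- replicate 5, and 2 of 14 and 5 of 65 of PQR/PQR replicate 2. With both kinds of recurrence, 13 of 50 and 19 of 157 Sμ junctions of DNA-PKcs-/- replicate 5, and 5 of 14 and 9 of 65 of PQR/PQR replicate 2, were listed elsewhere. Whether such junctions arose independently was not tested. By their read names, PQR/PQR replicate 1 was sequenced in the run of DNA-PKcs-/- replicate 5, whereas another run held PQR/PQR replicate 2.

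Members took up a larger share of IgH junctions in DNA-PKcs-/- replicate 5 than in either PQR/PQR library. They made up 19.2% there (138 of 717, Wilson 95% CI 16.5 to 22.3), 7.89% in PQR/PQR replicate 1 (123 of 1559, CI 6.65 to 9.33) and 10.3% in PQR/PQR replicate 2 (36 of 349, CI 7.54 to 14.0). By two-sided Fisher's exact tests, adjusted with Benjamini-Hochberg over 56 tests, p was 1.36e-12 against replicate 1, which is the comparison within a sequencing run, and 0.00180 against replicate 2. DNA-PKcs-/- replicate 5 exceeded the mean of both PQR/PQR shares by 10.1 percentage points, or by 11.8 points with Sμ left out. These tests compare libraries: 1 library against 2 allows 3 splits, and the smallest exact p between genotypes would be 0.333.

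The share was also higher with direct joins and insertions set aside. Among junctions with any MH, members made up 25.8% in DNA-PKcs-/- replicate 5 (22.3 to 29.7), 13.0% in PQR/PQR replicate 1 (11.0 to 15.2) and 16.4% in PQR/PQR replicate 2 (12.1 to 21.8), with adjusted Fisher's exact p of 3.16e-08 and 0.0290. Among junctions with MH of at least 2 bp the shares were 32.2% (138 of 428, CI 28.0 to 36.8), 22.9% (123 of 538, CI 19.5 to 26.6) and 29.3% (36 of 123, CI 22.0 to 37.8). On this base DNA-PKcs-/- replicate 5 was higher than PQR/PQR replicate 1 (adjusted Fisher's exact p = 0.0184), but against replicate 2 the difference was not detectable at this depth (adjusted p = 0.989).

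The order of the libraries was the same in Sμ, Sγ1 and Sε. In Sγ1, the switch region of IgG1, members were 23.7% of the total for DNA-PKcs-/- replicate 5 (50 of 211, CI 18.5 to 29.9), 9.56% in PQR/PQR replicate 1 (26 of 272, CI 6.61 to 13.6) and 10.4% in PQR/PQR replicate 2 (8 of 77, CI 5.36 to 19.2). In Sμ they were 17.4% (50 of 287, CI 13.5 to 22.2), 8.55% (40 of 468, CI 6.34 to 11.4) and 11.5% (14 of 122, CI 6.96 to 18.3). In Sε, the switch region of IgE, they were 16.3% (20 of 123, CI 10.8 to 23.8), 6.80% (54 of 794, CI 5.25 to 8.77) and 9.72% (14 of 144, CI 5.88 to 15.7). Against PQR/PQR replicate 1 the adjusted Fisher's exact p was 3.11e-04 in Sγ1, 0.00369 in Sμ and 0.00654 in Sε. Against PQR/PQR replicate 2 it was 0.0544, 0.393 and 0.393, so no single region passed against both libraries. In the rest of IgH the counts were 18 of 96, 3 of 25 and 0 of 6, and the last allows a share of up to 50%.

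**Figure D1:**
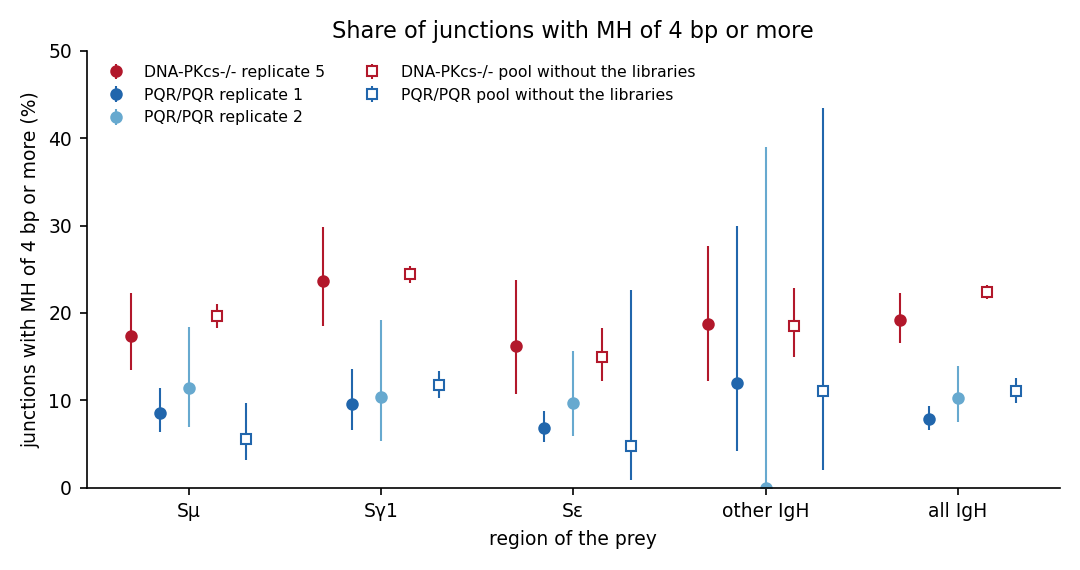
Percentage of junctions (y axis) with MH of 4 bp or more by region of the prey (x axis), with Wilson 95% intervals. Filled circles are the libraries and open squares the authors' pools without the libraries; DNA-PKcs-/- replicate 5 lies above both PQR/PQR libraries in each region, and its interval for all IgH, 16.5 to 22.3, lies above theirs.

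Short overlaps made up most members. In DNA-PKcs-/- replicate 5 there were 67 junctions with 4 bp, 45 with 5 bp and 26 with 6 bp or more, and the longest had 11 bp. The listed members of PQR/PQR replicate 1 comprised 39 with 4 bp, 17 with 5 bp and 25 with 6 bp or more, and the longest also had 11 bp. In PQR/PQR replicate 2 there were 17, 13 and 6, and the longest had 8 bp. Just outside the threshold, 131, 115 and 36 listed junctions had exactly 3 bp.

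Below the threshold the libraries differed in shape. The most frequent length was 2 bp in DNA-PKcs-/- replicate 5, with 158 junctions against 107 with 1 bp, and 1 bp in the PQR/PQR libraries, with 283 against 187 with 2 bp and 97 against 51. Among listed members, the mean length was 4.96 bp in DNA-PKcs-/- replicate 5, 5.19 bp in PQR/PQR replicate 1 and 4.86 bp in PQR/PQR replicate 2. For PQR/PQR replicate 1, this mean and the counts with 1 and 2 bp lack Sμ. With all 123 members of PQR/PQR replicate 1 counted by length class, 88 had 4 to 5 bp, 24 had 6 to 7 bp, 4 had 8 to 9 bp and 7 had 10 to 14 bp, of which 3 lay in Sμ. Lengths were what chose the members and were not tested.

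By region, Sγ1 of PQR/PQR replicate 1 had the largest proportion of members of 6 bp or more among regions with at least 10 listed members, 12 of 25. In Sγ1 of DNA-PKcs-/- replicate 5 they were 12 of 50, and in its Sμ 6 of 50, where 23 members had 4 bp and 21 had 5 bp. In Sγ1 of the pools without the libraries the genotypes were alike, with 4 or 5 bp in 57.7% of 1736 members for DNA-PKcs-/- and 58.7% of 208 for PQR/PQR. All 14 Sε members of PQR/PQR replicate 2 had 4 or 5 bp.

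**Figure D2:**
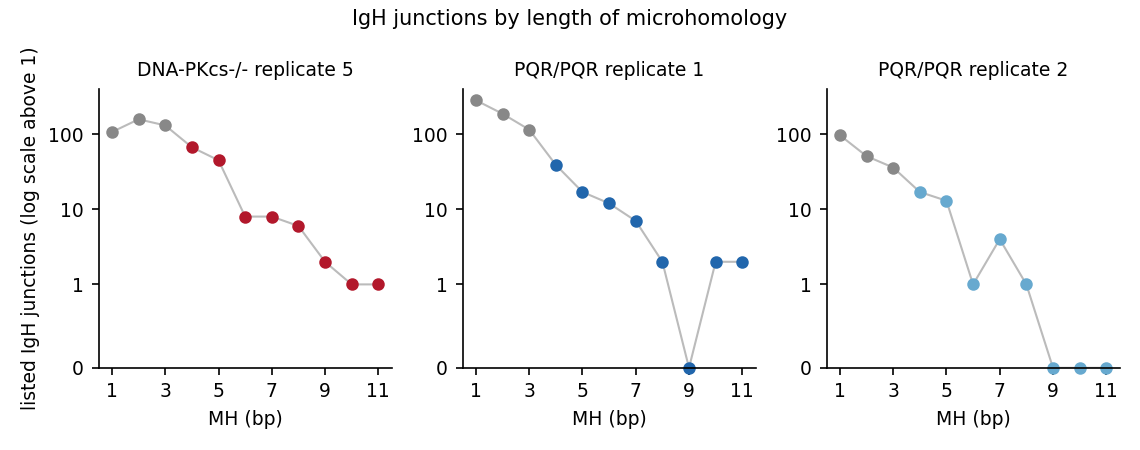
Number of listed IgH junctions (y axis, logarithmic above 1) by length of MH in bp (x axis) in each library; coloured points are members and grey points MH of 1 to 3 bp. The list of PQR/PQR replicate 1 lacks Sμ. Counts peak at 2 bp in DNA-PKcs-/- replicate 5 (158) and at 1 bp in the PQR/PQR libraries (283 and 97).

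In Sμ of PQR/PQR replicate 1, members were inverted far more often than junctions with shorter MH. An inverted junction joins the bait to a prey on the opposite strand and leaves no functional switch. Of its Sμ members 20 of 40 were inverted, or 50% (35.2 to 64.8), against 15.4% of Sμ junctions with MH of 1 to 3 bp (37 of 240, CI 11.4 to 20.5) and 11.8% of direct joins (15 of 127, CI 7.29 to 18.6). The adjusted Fisher's exact p for members against MH of 1 to 3 bp was 8.50e-05, and 0.0237 against MH of 2 to 3 bp alone. Which of these members recur in other libraries could not be counted without their list.

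In DNA-PKcs-/- replicate 5, 42% of Sμ members were inverted (21 of 50, CI 29.4 to 55.8) against 36.9% of those with MH of 1 to 3 bp (58 of 157, CI 29.8 to 44.7), a difference not detectable at this depth (adjusted Fisher's exact p = 0.813). The shares were 57.1% (8 of 14, CI 32.6 to 78.6) and 36.9% (24 of 65, CI 26.2 to 49.1) in PQR/PQR replicate 2, with an adjusted exact p of 0.509. The difference between members and MH of 1 to 3 bp was 5.06 points in DNA-PKcs-/- replicate 5 and 20.2 points in PQR/PQR replicate 2. It was 0.77 and 5 points without junctions listed in another library, and -0.37 and 6.94 points when those that recur in the DNA-PKcs-/- pool were left out as well. With aligned preys of 50 bp or more alone it was -0.80 points in PQR/PQR replicate 2.

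The contrast differed between DNA-PKcs-/- replicate 5 and PQR/PQR replicate 1. Zelen's exact test of equal odds ratios in Sμ, added after the data had been seen, gave p = 0.00304 for DNA-PKcs-/- replicate 5 against PQR/PQR replicate 1 (0.0183 after adjustment over 12 such tests). The exact p was 0.500 for DNA-PKcs-/- replicate 5 against PQR/PQR replicate 2, and 0.272 for the PQR/PQR libraries against each other. The inverted shares of Sμ members lay at 42% to 57.1% in all libraries, while those of MH of 1 to 3 bp lay at 15.4% to 36.9%.

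Read the other way, members were 23.0% of inverted Sμ junctions in PQR/PQR replicate 1 (20 of 87, CI 15.4 to 32.9) and 5.25% of deletional ones (20 of 381, CI 3.42 to 7.97). The same shares were 17.8% (8 of 45, CI 9.29 to 31.3) and 7.79% (6 of 77, CI 3.62 to 16.0) in PQR/PQR replicate 2. In DNA-PKcs-/- replicate 5 the shares were 18.4% (21 of 114, CI 12.4 to 26.5) and 16.8% (29 of 173, CI 11.9 to 23.0). Within Sμ the libraries were thus closer to each other among inverted junctions than among deletional ones, without a test. The same held in Sγ1, on few inverted junctions. Members were 12.5% (4 of 32, CI 4.97 to 28.1), 15.4% (4 of 26, CI 6.15 to 33.5) and 15.4% (2 of 13, CI 4.33 to 42.2) of inverted junctions there. They were 25.7%, 8.94% and 9.38% of deletional ones (DNA-PKcs-/- replicate 5, then PQR/PQR replicates 1 and 2). In the pools without the libraries, the DNA-PKcs-/- share in Sγ1 was higher in both orientations, without a test. For DNA-PKcs-/- it was 22.6% of 553 inverted and 24.6% of 6560 deletional junctions. For PQR/PQR it was 12.7% of 63 and 11.7% of 1707. The pattern of the libraries did not hold in Sε, at 16.7%, 10.8% and 0% of inverted and 16.2%, 6.61% and 10.5% of deletional junctions. With deletional junctions alone, the IgH share of DNA-PKcs-/- replicate 5 exceeded the mean of both PQR/PQR shares by 11.9 points.

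Outside Sμ inverted members were few. In Sγ1 they were 4 of 50 members, 4 of 26 and 2 of 8 in DNA-PKcs-/- replicate 5 and the PQR/PQR libraries, in the same order, against 18 of 114, 12 of 148 and 7 of 39 of the junctions with MH of 1 to 3 bp. In Sε they were 1 of 20, 4 of 54 and 0 of 14, against 3 of 66, 18 of 427 and 8 of 78. None of these passed the test, with adjusted exact p from 0.509 to 1.

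**Figure D3:**
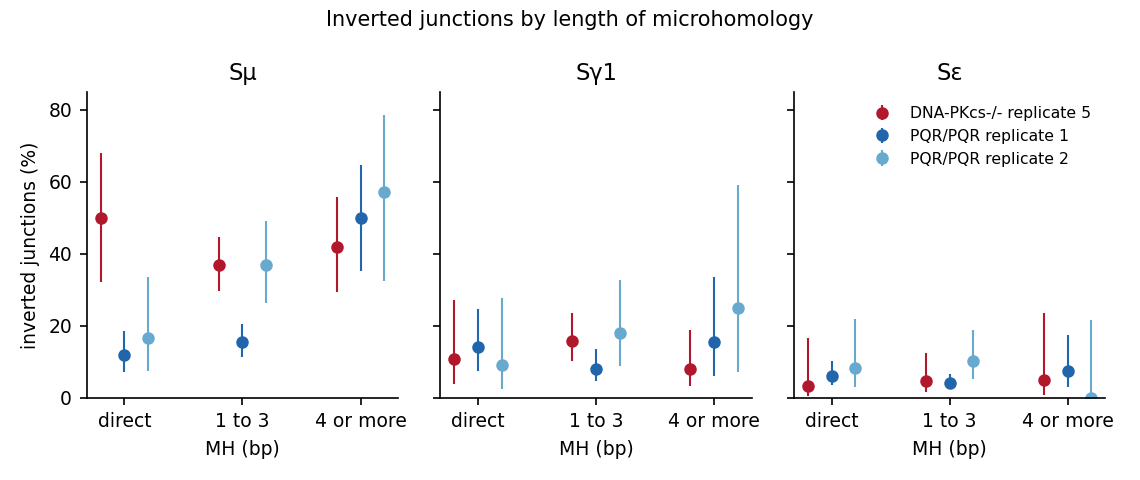
Percentage of inverted junctions (y axis) among direct joins and junctions with MH of 1 to 3 bp and of 4 bp or more (x axis) in Sμ, Sγ1 and Sε, with Wilson 95% intervals and one colour per library. In Sμ of PQR/PQR replicate 1 the share is 11.8%, 15.4% and 50% in these classes.

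No difference in region between members and junctions with shorter MH passed the test, although Sγ1 held a larger share of members in each library. In DNA-PKcs-/- replicate 5, Sγ1 held 36.2% of members and 28.7% of junctions with MH of 1 to 3 bp, a difference of 7.52 points. The same difference was 3.22 points in PQR/PQR replicate 1 and 1.03 points in PQR/PQR replicate 2. Sε held 14.5% of members and 16.6% of the comparison class in DNA-PKcs-/- replicate 5, 43.9% and 51.7% in PQR/PQR replicate 1, and 38.9% and 42.4% in PQR/PQR replicate 2. Over Sμ, Sγ1, Sε and the rest of IgH in 3 libraries, the adjusted Fisher's exact p ranged from 0.379 to 1. In the pools without the libraries, given without a test, Sγ1 held 68.8% of 2522 members and 61.0% of 5702 junctions with MH of 1 to 3 bp for DNA-PKcs-/-, and 94.1% of 221 and 88.4% of 1034 for PQR/PQR. Sμ held 25.3% and 30.3% in the former, and 4.98% and 9.96% in the latter.

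Within the switch regions the prey breaks of members were compared with the median of both classes together, as the share lying further from the bait. In Sε this share was higher among members in each library, at 65% against 44.6% in DNA-PKcs-/- replicate 5, 58.5% against 48.8% in PQR/PQR replicate 1 and 64.3% against 47.4% in PQR/PQR replicate 2. The median prey position in Sε was 114513461 for 20 members and 114514050 for 65 junctions with MH of 1 to 3 bp in DNA-PKcs-/- replicate 5, 114514126 and 114514402 in PQR/PQR replicate 1, and 114514068 and 114514252.5 in PQR/PQR replicate 2. None passed the test, with adjusted exact p of 0.393, 0.480 and 0.695.

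In Sμ of DNA-PKcs-/- replicate 5, 58% of members and 47.1% of the comparison class lay beyond the joint median (adjusted Fisher's exact p = 0.480). The difference was 10.9 points, and 11.3 points without junctions listed in another library (adjusted exact p = 0.617). Leaving out those of the rest of the DNA-PKcs-/- pool too, which removes 13 of 50 members and 19 of 157 others, gave 26.8 points (adjusted exact p = 0.0330). Prey position is part of what defines a recurrence, so this filter can itself shift the contrast, and no conclusion is drawn from it. With deletional junctions alone it was 24.5 points (adjusted exact p = 0.111). The 29 deletional members had their median prey 3489 bp from the bait's first base, and the 99 deletional junctions with MH of 1 to 3 bp had theirs at 1115 bp. In the whole DNA-PKcs-/- pool the gap was smaller, with medians of 2064.5 bp for 418 deletional members and 1564 bp for 1223 others. Within 200 bp of that base lay 1 of the 29 and 19 of the 99 in DNA-PKcs-/- replicate 5, and 17 of the 418 and 141 of the 1223 in the pool. In PQR/PQR replicate 2, 42.9% of 14 Sμ members and 50.8% of 65 others lay beyond the median. Of its 8 inverted members 6 lay within 200 bp, against 6 of 24 with shorter MH, and 3 of the 8 aligned to the bait's own stretch.

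The bait side had recurrent places. The shared bases of members included bait base 66, within the first AGCT, in 33 of 138 members of DNA-PKcs-/- replicate 5 (23.9%), 21 of 81 of PQR/PQR replicate 1 (25.9%) and 5 of 36 of PQR/PQR replicate 2 (13.9%). A run of 4 or more bases covers more bait bases than one of 1 to 3, so these values cannot be set directly beside those of shorter MH, which were 4.80%, 3.25% and 2.17% at this base. Bait base 32, soon after the primer, was included in 17.4%, 12.3% and 16.7% of members. Bait base 76, just past the palindrome, was included in 3 of 138 members of DNA-PKcs-/- replicate 5, 11 of 81 of PQR/PQR replicate 1 and 6 of 36 of PQR/PQR replicate 2. The list of PQR/PQR replicate 1 lacks Sμ, which held 50 of the 138 members of DNA-PKcs-/- replicate 5, so the libraries also differ here in prey region. These bases were chosen from the profile after it had been seen and were not tested.

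The position of the bait end as a whole was compared in the same way as the prey. Its median was bait base 60 for members and 59 for MH of 1 to 3 bp in DNA-PKcs-/- replicate 5, 67 and 57 in PQR/PQR replicate 1, and 63.5 and 55 in PQR/PQR replicate 2. The shares beyond the joint median were 50.7% against 49.5%, 60.5% against 46.8% and 55.6% against 48.9%. None passed the test (adjusted Fisher's exact p of 0.95, 0.0964 and 0.813). Because the bait end is the last shared base, a longer MH moves it outward, and MH length chose the members. This test therefore cannot separate position from length. At the first shared base the medians were 55.5 for members and 58 for MH of 1 to 3 bp in DNA-PKcs-/- replicate 5. They were 64 and 57 in PQR/PQR replicate 1, and 59 and 55 in PQR/PQR replicate 2. In DNA-PKcs-/- replicate 5 the order was thus reversed.

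**Figure D4:**
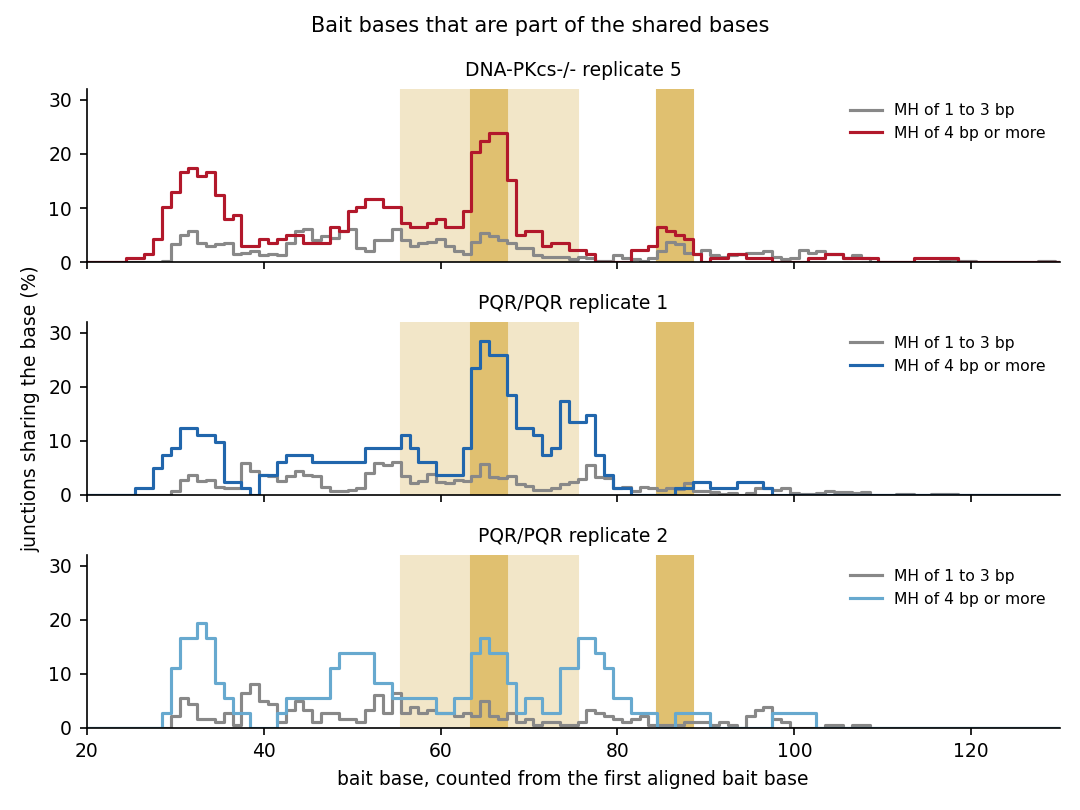
Percentage of listed junctions whose shared bases include a bait base (y axis) along the bait (x axis, bases from its first aligned base), for members (colour) and MH of 1 to 3 bp (grey), without the few bait ends beyond the axis. The list of PQR/PQR replicate 1 lacks Sμ. Pale shading marks the palindrome, bases 56 to 75, and dark shading the AGCT motifs at 64 to 67 and 85 to 88; bait base 66 is shared by 23.9%, 25.9% and 13.9% of members from top to bottom.

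A small set of sequences recurred among the shared bases. In DNA-PKcs-/- replicate 5 the most frequent were AGCT and AGCTG with 9 members each and CACC and GCTG with 7 each, among 70 distinct sequences. In PQR/PQR replicate 1, without Sμ, they were GCTG with 12 of 81 members, AGCT with 5, and AGCTG and AGGC with 4 each, among 49. In PQR/PQR replicate 2 GCTG led with 4 of 36, among 29. AGCT and GCTG overlap within the bait at its first AGCT, and GCTG occurs there again further on. One junction of PQR/PQR replicate 1, in Sγ1 with prey from 114568742, was listed 2 times, and it too was joined at the first AGCT.
repeated member, PQR/PQR replicate 1, Sγ1: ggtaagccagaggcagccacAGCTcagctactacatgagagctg

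AGCT lay within the shared bases of 30 of 138 members of DNA-PKcs-/- replicate 5 (21.7%, 15.7 to 29.3), 16 of 81 of PQR/PQR replicate 1 (19.8%, 12.5 to 29.7) and 4 of 36 of PQR/PQR replicate 2 (11.1%, 4.41 to 25.3). Neither PQR/PQR library differed detectably from DNA-PKcs-/- replicate 5 by Fisher's exact test, with an adjusted p of 0.95 for replicate 1 and 0.509 for replicate 2. However, the list of PQR/PQR replicate 1 lacks Sμ, whereas Sμ is included for DNA-PKcs-/- replicate 5. The test against replicate 1 therefore cannot tell library from region, and no conclusion is drawn from it. By region, AGCT was in the shared bases of 16 of 50 Sμ, 9 of 50 Sγ1 and 4 of 20 Sε members of DNA-PKcs-/- replicate 5, and of 6 of 25 Sγ1 and 8 of 53 Sε members of PQR/PQR replicate 1. In Sγ1 the share was lower in DNA-PKcs-/- replicate 5 than in PQR/PQR replicate 1 (18% against 24%). It was higher in Sε (20% against 15.1%), both without a test. In the rest of IgH the counts were 1 of 18 and 2 of 3. In Sμ of DNA-PKcs-/- replicate 5, 12 of 29 deletional and 4 of 21 inverted members held AGCT. AGCT reads the same on both strands, so these counts hold for either. The motifs GAGCT and GGGCT, common in switch repeats, and the motif GGGGT were in the shared bases of 0 listed members of the 3 libraries on either strand. The bait printed above holds none of them on its own strand.

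The shared bases were rich in G and C. Counted per base, they were 31.1% G, 30.1% C, 26.8% A and 12.0% T in DNA-PKcs-/- replicate 5 (684 bases), 36.9% G, 25% C, 21.4% A and 16.7% T in PQR/PQR replicate 1 (420 bases), and 32.6% G, 28% C, 22.3% A and 17.1% T in PQR/PQR replicate 2 (175 bases). G and C together made up 61.3%, 61.9% and 60.6%. For MH of 1 to 3 bp they made up 61.2%, 58.3% and 61.2%, with more G, at 35.9%, 37.6% and 36.2%. The 10 bait bases before the shared bases of members were 57.2%, 60.7% and 56.9% G and C, and the 10 prey bases after them 50.7%, 55.6% and 53.3%. The shared bases were thus at or above the G and C content of both flanks in each library for members, without a test.

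The germline prey upstream of the break was compared with the bait bases retained before the overlap. Of the 9 germline prey bases lying 2 to 10 bases before the break, 2.37 ± 1.27 (SD over 138 members) equalled the bait base at the same place in DNA-PKcs-/- replicate 5, 2.25 ± 1.35 (81 members) in PQR/PQR replicate 1 and 2.22 ± 1.15 (36 members) in PQR/PQR replicate 2. The values for MH of 1 to 3 bp were 2.38 ± 1.38, 2.15 ± 1.32 and 2.32 ± 1.30, and those for direct joins 2.43 ± 1.45, 2.42 ± 1.38 and 2.27 ± 1.34. These are descriptions without a test, and the bait beyond the overlap was not compared with the prey.

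The authors' pools hold further libraries of each genotype, mostly from other sequencing runs for DNA-PKcs-/-, and are given as pooled values without a test. For PQR/PQR the runs of the rest of the pool are mostly unknown, since its lists used here lack Sμ and Sγ1. Outside the libraries above, members made up 22.4% of IgH junctions in the DNA-PKcs-/- pool (2522 of 11258, CI 21.6 to 23.2) and 11.1% in the PQR/PQR pool (221 of 1998, CI 9.76 to 12.5). These shares rest on unlike mixes of regions. Sγ1 held 1770 and Sε 21 of the 1998 junctions for PQR/PQR, unlike PQR/PQR replicate 1 with 272 and 794 of 1559. For DNA-PKcs-/-, Sγ1 held 7113 and Sε 533 of the 11258. In Sγ1 the shares were 24.4% (1736 of 7113, CI 23.4 to 25.4) and 11.8% (208 of 1770, CI 10.3 to 13.3), and in Sμ 19.7% (637 of 3240, CI 18.3 to 21.1) and 5.56% (11 of 198, CI 3.13 to 9.67). In Sμ of this part of the PQR/PQR pool 4 of 11 members and 8 of 103 junctions with MH of 1 to 3 bp were inverted, and in that of the DNA-PKcs-/- pool 38.8% (247 of 637) and 34.6% (599 of 1729). Members with at least 15 bp were 9 of 2660 in the whole DNA-PKcs-/- pool and 0 of 380 in the PQR/PQR pool. A separate sheet for large insertions and MH added 9 IgH lines with 21 to 91 bp to the former and 2 with 22 and 26 bp to the latter, and none to the libraries. In the listed part of the DNA-PKcs-/- pool, which lacks Sγ1, AGCTG (79 of 870), AGCT (72) and GCTG (50) were the most frequent shared sequences.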

How the data were processed

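Junctions were sequenced by MiSeq, per the labels' protocols. The submitters' processing notes name Bowtie2 and the mm9 build, and the version, filters and junction caller were not given in the sources used here. As for units, the other values used were deposited by the authors as sheets of junction counts by region, strand and gap between bait and prey alignments, and as lists of single junctions with alignment bounds and reads, not normalized. Depth was 842, 1681 and 472 junctions. Intervals cover counting error only, since no molecular identifiers are described.

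MH was computed as the overlap of bait and prey in the read, and list counts were checked against the count sheets. Shares have Wilson 95% intervals. Counts were compared by two-sided Fisher's exact tests with Benjamini-Hochberg adjustment over 56 tests. The 368 alternatives run are not among these 56 tests, and their p-values were adjusted separately. A call needs an adjusted p below 0.05, against both PQR/PQR libraries in the same direction where libraries are compared. Scripts used Python 3 with SciPy and were tested on simulated data. The members, lists and tests were chosen with earlier results of these data known. Printed sequences were named by rule: the longest member per library and region, and the member listed most often. Those shared between libraries were added after the data had been seen. Alternatives changed the MH limit, the comparison class, the denominator, orientation, repeats, prey length and libraries. No genome in mm9 was used.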

Additional observations from a re-analysis of the deposited data

Results flagged for a closer look

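The contrast between members and junctions with MH of 1 to 3 bp in their inverted share differed between a DNA-PKcs-/- and a PQR/PQR library. In Sμ it was 5.06 points in DNA-PKcs-/- replicate 5 and 34.6 points in PQR/PQR replicate 1 (Zelen's exact p = 0.00304). Over all IgH it was -2.13 and 14.5 points (Zelen's exact p = 2.35e-04, 0.00282 after adjustment over 12 tests). Against PQR/PQR replicate 2, with 36 members, the exact p was 0.500 in Sμ and 0.455 over all IgH. Recurrent junctions could not be left out of Sμ of PQR/PQR replicate 1, whose list was not used. The contrast over all IgH contains the Sμ junctions and is not a separate result. The mix of regions also differed, with Sε holding 16.6% of junctions with MH of 1 to 3 bp in DNA-PKcs-/- replicate 5 and 51.7% in PQR/PQR replicate 1. Both differences compare libraries, and their cause was not tested.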

How the results depend on the processing

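The share of members among IgH junctions was called under every alternative run, with differences of 6.56 points (MH of 5 bp or more, Sμ left out) to 20.1 points (MH of 3 bp or more, Sμ left out). The share among MH junctions was no longer called with MH of 5 bp or more (7.47 points), aligned preys of 50 bp or more (13.5 points), both without Sμ and so with fewer junctions, or MH of 2 to 3 bp as comparison (6.18 points). Without one PQR/PQR library the differences were 8.93 to 11.4 points among all junctions and 9.43 to 12.8 points among MH junctions. For AGCT they were 1.99 to 10.6 points, the former against a list that lacks Sμ. Without PQR/PQR replicate 2, Sμ, Sγ1 and Sε were each called for both shares, and without replicate 1 Sγ1 was called for the first (13.3 points). These were the tests already given against the remaining library, adjusted over fewer tests and without the need to pass against both. They add no new evidence. No paired analysis was possible because the genotypes share no replicate numbers. List-based alternatives could not be run for Sμ of PQR/PQR replicate 1. Leaving out the sheet of large MH changed nothing in the libraries, which had none of its lines.

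The Sμ prey position in DNA-PKcs-/- replicate 5 became called, in the same direction, with junctions listed elsewhere left out (26.8 points), and not with those of another library alone left out (11.3 points). Recurrence is defined in part by prey position, so this call cannot be told apart from an effect of the filter. Differences that had not passed the test changed sign as follows, with the cause not tested. With MH of 5 bp or more, inverted shares became 5.59 points (IgH, DNA-PKcs-/- replicate 5) and -0.050 points (Sε, PQR/PQR replicate 1), region shares 1.02 points (other IgH, DNA-PKcs-/- replicate 5) and -6.10 points (Sγ1, PQR/PQR replicate 2), prey position -2.94 points (Sγ1, PQR/PQR replicate 1) and bait position -2.88 points (PQR/PQR replicate 2). With MH of 3 bp or more, inverted shares became 3.79 (IgH, DNA-PKcs-/- replicate 5), -0.94 (Sγ1, PQR/PQR replicate 1) and -1.26 points (Sγ1, PQR/PQR replicate 2), region shares 1.29 (Sμ) and 3.53 points (other IgH) in DNA-PKcs-/- replicate 5 and -9.05 points (Sγ1, PQR/PQR replicate 2), bait position -5.24 points (DNA-PKcs-/- replicate 5) and prey position -2.96 points (Sε, PQR/PQR replicate 1). In PQR/PQR replicate 2, long preys gave -3.57 (inverted, IgH), -0.80 (inverted, Sμ) and -5.00 points (region, Sμ), deletional junctions -5.40 (region, Sμ) and 5.24 points (region, Sε), MH of 2 to 3 bp as comparison -2.49 points (region, Sμ), exact overlaps -0.61 points (region, Sγ1) and removal of junctions listed elsewhere -0.21 (inverted, IgH) and -0.61 points (region, Sμ), and removal of those of another library alone -2.27 (inverted, IgH), -2.84 (region, Sμ) and 1.14 points (region, Sε). In PQR/PQR replicate 1, deletional junctions gave -5.73 points (region, Sμ) and MH of 2 to 3 bp -0.79 points (region, Sγ1). In DNA-PKcs-/- replicate 5, MH of 2 to 3 bp gave -1.98 points (inverted, Sε), removal of junctions listed elsewhere -0.37 points (inverted, Sμ), and the first shared base -3.88 points (bait position). The pools, over Sε and other IgH alone, gave -0.41 points for AGCT. The depth of PQR/PQR replicate 2, 36 members, limits every comparison with it.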
